A study of Rattus norvegicus with 12 samples.

Results

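The genes examined here were 9 growth arrest genes of the p53 and GADD45 pathways, Cdkn1a, Mdm2, Gadd45a, Gadd45b, Gadd45g, Ccng1, Plk3, Btg2 and Sesn1. They were chosen by symbol from the 17268 genes of the count table, and all 9 were present. RNA of the cerebral cortex was sequenced from 12 adult male Sprague Dawley rats in 4 groups of 3, called Sham, Model, rt-PA and, with acupuncture as well, rt-PA+Acu. Sham rats were operated on but got no clot, and the other groups received a blood clot from a donor rat in the middle cerebral artery, an embolic stroke. Model rats had no treatment. The rt-PA rats received recombinant tissue plasminogen activator, a drug that dissolves clots, at 10 mg/kg 6 h after the clot, and rt-PA+Acu rats had the same drug after acupuncture at 2 h at GV26 and PC6. The design text names the left PC6 and the methods both sides. The design has no group with acupuncture alone and none with sham needling, and the hour at which cortex was taken for RNA is not stated for the sequencing.

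The protein p53 is a transcription factor that is stabilized by DNA damage and other stress and switches on genes that halt the cell cycle, repair DNA or start cell death. Cdkn1a encodes p21, which blocks cyclin-dependent kinases, and Mdm2 encodes the ubiquitin ligase that marks p53 for degradation, a negative feedback. The 3 GADD45 proteins are small stress sensors that bind MAP3K4, p21 and PCNA. Their genes also respond to signals other than p53, and in the brain Gadd45b and Gadd45g are known as genes induced by activity and injury. Neurons do not divide, so in neurons these genes are read mainly as stress genes. Bulk cortex also holds other cell types, and which cells the RNA of these genes came from was not tested.

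The sequence upstream of the start of each gene was read from the RefSeq promoters of the GRCr8 build, a newer build than the mRatBN7.2 of the counts, and all 9 genes matched. The 250 bases before the start were searched on both strands in 33469 promoters. The windows of Gadd45b, Mdm2 and Sesn1 lay wholly within the span of the gene's own RefSeq transcripts, so they were not upstream of every transcript. A p53 site, which consists of a pair of decamers with a spacer of at most 13 bases, was found with at most 1 mismatch in 3 of the 9 genes, Cdkn1a, Gadd45a and Ccng1, and in 0.427% of all promoters. With at most 2 mismatches it was found in 4 of the 9, Sesn1 being the fourth, and in 2.88% of all promoters. The sequences of these 3 genes are shown for this site, in capitals, together with the octamer ATTTGCAT of Gadd45a. That of Cdkn1a is cut to 138 bases at chr20:7150682-7150819 on the plus strand, because the rest lies within the span of the gene's own RefSeq transcripts. The Gadd45a sequence is chr4:97486800-97487049 and that of Ccng1 chr10:25684877-25685126, both on the minus strand.
Cdkn1a: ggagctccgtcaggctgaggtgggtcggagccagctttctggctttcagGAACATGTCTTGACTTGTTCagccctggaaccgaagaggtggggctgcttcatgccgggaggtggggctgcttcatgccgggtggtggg
Gadd45a: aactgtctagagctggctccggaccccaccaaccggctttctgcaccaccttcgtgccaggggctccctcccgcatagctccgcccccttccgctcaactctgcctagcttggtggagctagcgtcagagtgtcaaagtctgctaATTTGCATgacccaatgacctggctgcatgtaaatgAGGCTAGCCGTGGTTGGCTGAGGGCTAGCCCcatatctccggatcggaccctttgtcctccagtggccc
Ccng1: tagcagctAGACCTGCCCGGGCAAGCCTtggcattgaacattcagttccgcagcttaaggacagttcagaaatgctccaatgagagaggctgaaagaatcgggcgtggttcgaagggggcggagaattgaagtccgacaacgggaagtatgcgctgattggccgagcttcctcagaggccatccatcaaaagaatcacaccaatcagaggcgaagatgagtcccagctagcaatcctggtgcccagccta
The Cdkn1a site lay at -201 to -182 from the start with no spacer, that of Ccng1 at -242 to -223 with no spacer, and that of Gadd45a at -69 to -39 with a spacer of 11 bases.

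Gadd45g and Gadd45b shared the E-box CACGTG, which was found in 2 of the 9 genes and 5.59% of all promoters. Gadd45g and Gadd45a shared the octamer ATTTGCAT, found in 2 of the 9 and 1.56% of all. Btg2 alone among the 9 had the full CRE TGACGTCA, the site of CREB and ATF proteins, which was found in 1.59% of all promoters. These 3 motifs are in capitals in the sequences of Gadd45g (chr17:13530352-13530601), Gadd45b (30 bases at chr7:9430879-9430908, around the E-box alone) and Btg2 (chr13:48087691-48087940), all on the minus strand. That of Gadd45b is cut to 30 bases because its window lies within the span of its own transcripts.
Gadd45g: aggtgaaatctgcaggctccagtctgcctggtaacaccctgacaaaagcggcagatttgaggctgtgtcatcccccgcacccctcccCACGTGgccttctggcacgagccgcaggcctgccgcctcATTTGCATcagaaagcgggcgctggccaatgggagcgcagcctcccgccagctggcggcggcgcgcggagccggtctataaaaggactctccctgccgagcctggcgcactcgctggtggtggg
Gadd45b: agccctgaccccCACGTGgggccgccggag
Btg2: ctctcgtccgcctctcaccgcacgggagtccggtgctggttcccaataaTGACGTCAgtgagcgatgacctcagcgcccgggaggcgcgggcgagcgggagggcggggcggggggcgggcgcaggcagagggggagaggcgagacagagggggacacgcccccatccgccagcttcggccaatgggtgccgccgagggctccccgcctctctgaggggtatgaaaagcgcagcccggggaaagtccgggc
The E-box lay at -163 to -158 in Gadd45g and at -178 to -173 in Gadd45b, the octamer at -124 to -117 in Gadd45g and at -105 to -98 in Gadd45a, and the CRE of Btg2 at -201 to -194. The AP-1 site TGANTCA was found in 0 of the 9 windows and in 6.34% of all. The shorter TGACG, which the full CRE contains, was found in 6 of the 9 and 18.2% of all, and the GC box GGGCGG in 6 of the 9 and 30.5% of all. CCAAT was found in 7 of the 9 and in 34% of all, and TATAAA in 1, Gadd45g, and in 12.9% of all. A match is a description of the letters and not evidence of binding, and the motifs were chosen after the sequences were seen. The 9 genes were chosen as genes of the p53 and GADD45 pathways, so a larger share with p53 sites than among all promoters is not a separate finding.

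Libraries held 11678450 to 13616935 counts, so that 3 counts stood for 0.208 to 0.262 CPM, counts scaled to a common library size. Library sizes were scaled with TMM factors of 0.949 to 1.08, and levels below are CPM, which are not corrected for gene length and are compared only between libraries. A gene was called differentially expressed (DEG) at an adjusted p under 0.05 in edgeR's quasi-likelihood test and an absolute log2 fold change over 1, and genes are said to have risen, fallen or passed the test at that adjusted p whatever the fold. Model replicate 3 stands apart from the other Model libraries at some genes, Btg2 among them, and results that change without it are given both ways. In bulk cortex, fewer cells of a type and less RNA per cell cannot be told apart.

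Most of the 9 genes were higher in Model than in Sham, none differed past the test between rt-PA and Model, and most were lower in the rt-PA+Acu group than in rt-PA, with no difference from Sham past the test. In Model vs Sham, 6 of the 9 were DEGs, all higher in Model (Gadd45g, Gadd45b, Gadd45a, Cdkn1a, Mdm2 and Plk3), against 21.5% of the 12884 genes tested, 9.43% higher. Without the fold change threshold 8 of the 9 passed, 7 higher and Sesn1 lower, against 54.0% of all genes (27.3% higher and 26.6% lower), and the same 8 had groups that did not overlap, against 63.7% of all genes. The median log2 fold change of the 9 genes was 1.11, and that of all genes tested was 0.01. In rt-PA vs Model 0 of the 9 and 0% of all genes were DEGs. In rt-PA+Acu against rt-PA 6 of the 9 were DEGs, all lower (Cdkn1a, Gadd45g, Gadd45b, Gadd45a, Plk3 and Btg2), against 15.3% of 12999 genes, 8.16% lower. All 9 passed without the fold change threshold, 8 lower and Sesn1 higher, against 34.8% of all genes (17.7% lower and 17.0% higher), and all 9 had groups apart, against 51.1%. Here the median log2 fold change was -1.22 for the 9 genes and 0.00 for all genes.

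**Figure D1:**
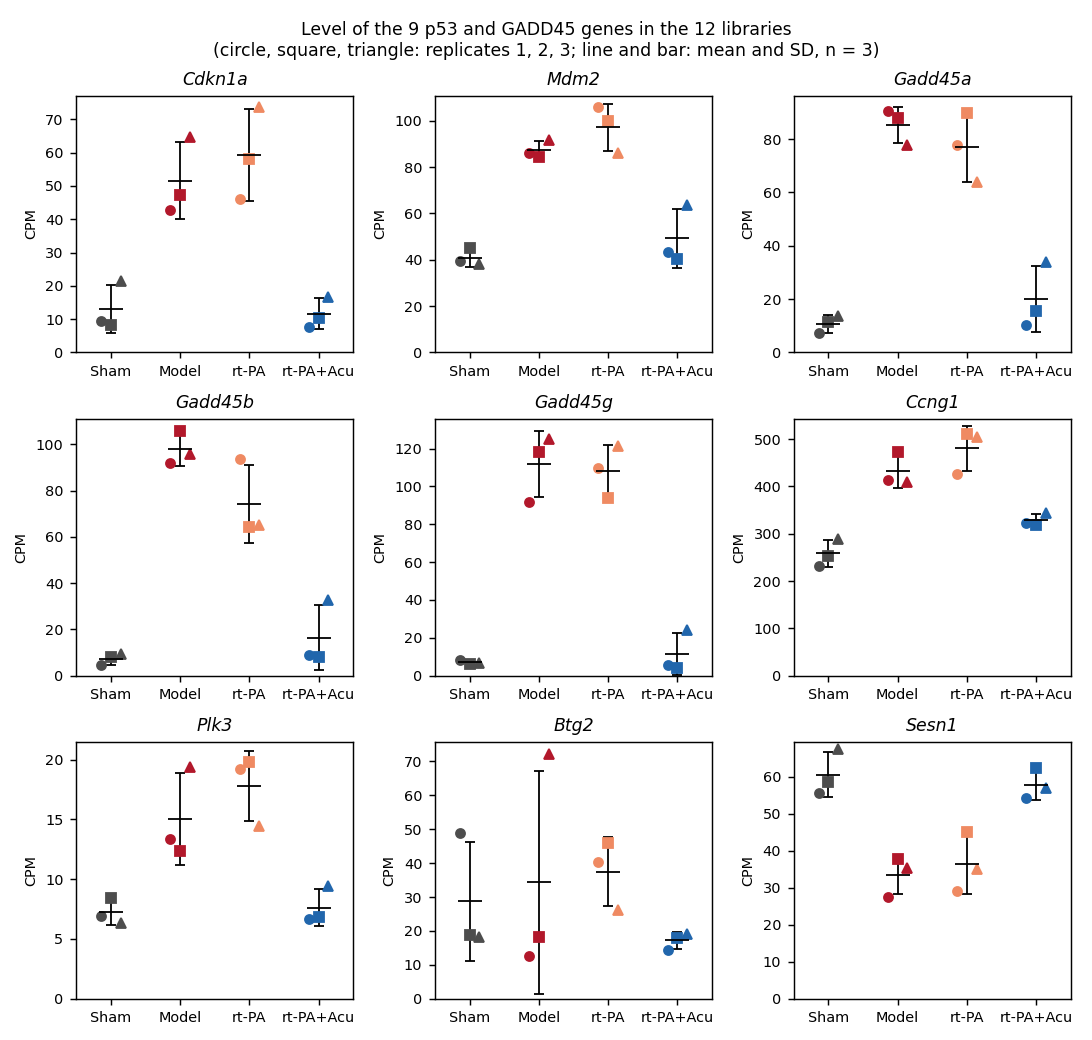
CPM of each gene (vertical axis, linear from 0, each panel with its own scale) in the 3 libraries of each group (points), with the group mean and SD. The GADD45 genes stood at 63.9 to 125.1 CPM in all 6 Model and rt-PA libraries and at 4.27 to 34.1 in the others, while Btg2 overlapped between Sham, Model and rt-PA.

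Cdkn1a, whose protein p21 stops cells before S phase, had 9.46, 8.27 and 21.3 CPM in Sham replicates 1 to 3 and 42.7, 47.3 and 64.6 in Model. It had 46.0, 58.1 and 73.7 CPM in rt-PA and 7.66, 10.4 and 16.7 in rt-PA+Acu. The groups with a stroke and no acupuncture did not overlap with the other groups, and Sham replicate 3 lay above every rt-PA+Acu library. Cdkn1a was 4.0-fold higher in Model than in Sham (log2 fold change 2.00, SE 0.34, adjusted p = 0.00158). It was 5.10-fold lower in the rt-PA+Acu group than in rt-PA (log2 fold change -2.35, SE 0.30, adjusted p = 0.00235). The difference between rt-PA+Acu and Sham was -0.16 on the log2 scale with a 95% interval of -1.10 to 0.79, and it changed sign without Sham replicate 3, to 0.39.

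Mdm2, the ligase that limits p53, had 39.3, 45.2 and 38.1 CPM in Sham, 86.2, 84.5 and 91.5 in Model, 105.8, 99.8 and 86.0 in rt-PA and 43.5, 40.3 and 63.8 in rt-PA+Acu. Every Model and rt-PA library lay above every other library, and rt-PA+Acu replicate 3 was the highest of its group. The rise in Model was 2.15-fold (log2 fold change 1.11, SE 0.10, adjusted p = 6.92e-05). The fall in rt-PA+Acu against rt-PA was 1.97-fold (-0.98, SE 0.19, adjusted p = 0.00812), just under the threshold for a DEG. Without rt-PA+Acu replicate 3 it was -1.21 and without rt-PA replicate 3 it was -1.06, both past it.

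The 3 GADD45 genes had the largest log2 fold changes of the 9 in Model vs Sham. Gadd45g had 8.33, 6.12 and 6.73 CPM in Sham and 91.8, 118.2 and 125.1 in Model, a 15.9-fold rise (log2 fold change 3.99, SE 0.17, adjusted p = 4.31e-06) that ranked 153 by size among the 12884 genes. In rt-PA it stood at 109.6, 93.8 and 121.2, and in rt-PA+Acu at 5.56, 4.27 and 24.0, 9.47-fold lower (-3.24, SE 0.59, adjusted p = 0.00697). Replicates 1 and 2 of rt-PA+Acu lay below every Sham library and replicate 3 above all of them. Without replicate 3 the log2 fold change against rt-PA was -4.45.

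Gadd45b, known as an early gene of injury and neuronal activity, had 4.36, 7.88 and 9.17 CPM in Sham, 92.0, 105.9 and 95.7 in Model, 93.8, 64.2 and 65.1 in rt-PA and 8.84, 8.02 and 32.5 in rt-PA+Acu. It was 13.8-fold higher in Model than in Sham (log2 fold change 3.79, SE 0.23, adjusted p = 1.48e-05) and 4.49-fold lower in the rt-PA+Acu group than in rt-PA (-2.17, SE 0.52, adjusted p = 0.0169). The groups on each side of both comparisons lay apart. Without rt-PA+Acu replicate 3, the highest of its group, the fall was -3.13 on the log2 scale (adjusted p = 0.000486). It was -1.97 without rt-PA replicate 1 and -1.84 without rt-PA+Acu replicate 2, where the adjusted p of 0.0545 and 0.0518 no longer passed.

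Gadd45a, a classical target of p53 with its best known site in an intron, had 7.11, 11.3 and 13.5 CPM in Sham, 90.5, 87.8 and 77.7 in Model, 77.7, 90.0 and 63.9 in rt-PA and 10.3, 15.7 and 34.1 in rt-PA+Acu. Its rise in Model was 8.07-fold (log2 fold change 3.01, SE 0.21, adjusted p = 2.61e-05), and its fall in rt-PA+Acu against rt-PA 3.84-fold (-1.94, SE 0.40, adjusted p = 0.0100). Again replicate 3 of rt-PA+Acu was the highest of its group and lay below every rt-PA library, and without it the fall was -2.57 on the log2 scale.

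The counts of the 3 GADD45 genes together were 245 to 337 in Sham, 3595 to 3689 in Model, 3396 to 4055 in rt-PA and 293, 321 and 1210 in rt-PA+Acu. Gadd45g gave 42.0%, 24.2% and 22.8% of them in Sham, 33.5%, 37.9% and 41.9% in Model, 39.0%, 37.8% and 48.4% in rt-PA and 22.5%, 15.3% and 26.5% in rt-PA+Acu. These shares are of counts and not per length. The Gadd45g share was lower in all 3 rt-PA+Acu libraries than in any Model or rt-PA library, and it overlapped between Sham and each other group. The difference in shares was not tested.

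Ccng1 (cyclin G1, a p53 target that takes part in the feedback with Mdm2) moved less. It had 232.5, 253.6 and 289.2 CPM in Sham, 413.8, 473.8 and 408.5 in Model, 425.9, 512.0 and 504.2 in rt-PA and 323.4, 318.4 and 343.0 in rt-PA+Acu. It was 1.68-fold higher in Model than in Sham (log2 fold change 0.75, SE 0.11, adjusted p = 0.000615) and 1.47-fold lower in the rt-PA+Acu group than in rt-PA (-0.55, SE 0.12, adjusted p = 0.0109), and was not a DEG in either. Ccng1 alone among the 9 had rt-PA+Acu libraries that all lay above all Sham libraries, by 0.35 on the log2 scale (95% interval 0.09 to 0.60, adjusted p = 0.117). With DESeq2 in place of edgeR the adjusted p of this difference was 0.0431.

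Plk3, a polo-like kinase that responds to DNA damage and hypoxia, had 6.95, 8.42 and 6.38 CPM in Sham, 13.4, 12.3 and 19.4 in Model, 19.2, 19.8 and 14.4 in rt-PA and 6.65, 6.80 and 9.43 in rt-PA+Acu. Sham and rt-PA+Acu overlapped, and both lay below all Model and rt-PA libraries. The rise in Model was 2.08-fold (log2 fold change 1.06, SE 0.22, adjusted p = 0.00424). It was 0.84 without Model replicate 3 and 0.97 without Sham replicate 3, with adjusted p of 0.00676 and 0.0221, and then under the fold change of a DEG. In rt-PA+Acu against rt-PA Plk3 was 2.33-fold lower (-1.22, SE 0.21, adjusted p = 0.00619).

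Sesn1 (sestrin 1, a p53 target that restrains mTORC1) went the other way. It had 55.6, 58.7 and 67.4 CPM in Sham, 27.5, 37.7 and 35.3 in Model, 29.3, 45.2 and 35.0 in rt-PA and 54.2, 62.3 and 56.9 in rt-PA+Acu. All Model and rt-PA libraries lay below all Sham and rt-PA+Acu libraries. Sesn1 changed by -0.85 on the log2 scale in Model vs Sham (SE 0.14, adjusted p = 0.0012) and 0.66 in rt-PA+Acu against rt-PA (SE 0.17, adjusted p = 0.0203), in neither of which it was a DEG. The second adjusted p was 0.0576 without rt-PA replicate 1, 0.0694 without rt-PA replicate 3 and 0.0722 without rt-PA+Acu replicate 2.

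Btg2, an antiproliferative gene induced by p53 and also by growth factors, followed single libraries more than groups. It had 49.0, 18.8 and 18.3 CPM in Sham, 12.7, 18.1 and 72.2 in Model, 40.3, 45.8 and 26.1 in rt-PA and 14.5, 18.0 and 19.2 in rt-PA+Acu. The level in Model replicate 3 was the highest of the 12 libraries and that in Model replicate 1 the lowest. The Model vs Sham difference was 0.26 on the log2 scale (95% interval -1.22 to 1.74, adjusted p = 0.752), and without Model replicate 3 it was -0.89 (adjusted p = 0.115). Btg2 was 2.17-fold lower in the rt-PA+Acu group than in rt-PA (-1.12, SE 0.23, adjusted p = 0.00943), with groups that did not overlap. The same difference had an adjusted p of 0.135 when all 12 libraries shared one estimate of the spread, and was -0.95 without rt-PA replicate 2.

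**Figure D2:**
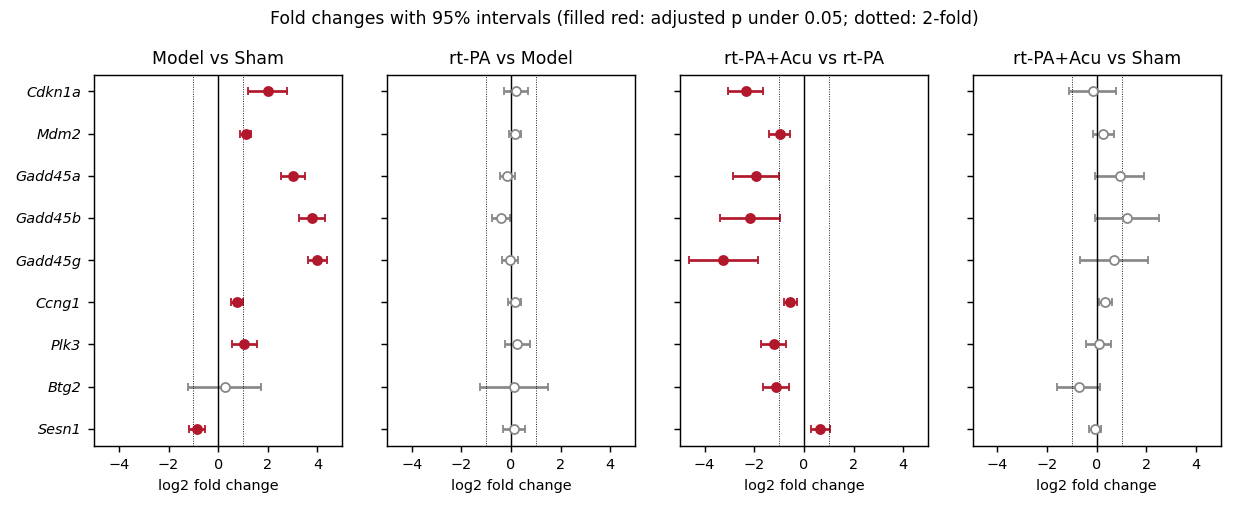
Log2 fold changes with their 95% intervals (horizontal axis) of the 9 genes in Model vs Sham, rt-PA vs Model, rt-PA+Acu against rt-PA and rt-PA+Acu vs Sham, from edgeR's quasi-likelihood fits. The Model vs Sham values ran from -0.85 for Sesn1 to 3.99 for Gadd45g, and those of rt-PA+Acu against rt-PA from -3.24 for Gadd45g to 0.66 for Sesn1.

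In rt-PA vs Model, which asks what the late drug alone changed, none of the 9 genes passed the test (edgeR, smallest adjusted p = 0.480). At an unadjusted p under 0.05, 1 of the 9 passed, Gadd45b, at -0.39 on the log2 scale (95% interval -0.76 to -0.02), beside 1284 of 12941 genes. The log2 fold changes of the other 8 lay between -0.14 and 0.25. Their intervals excluded a 2-fold change in each of them except Btg2, whose interval was -1.25 to 1.51. In this comparison 0 of the 9 had groups apart, against 16.0% of all genes, and DESeq2 called 0 of the 9 and 72 of all genes.

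In rt-PA+Acu vs Sham, 0 of the 9 were DEGs and 0 passed without the fold change threshold, against 2.06% and 5.10% of 12775 genes. At an unadjusted p under 0.05, 1 of the 9 passed, Ccng1, beside 2964 of the 12775 genes, and DESeq2 called 0 of the 9 as DEGs. This does not show equal levels. The intervals of Gadd45a (log2 difference 0.92, 95% interval -0.08 to 1.91), Gadd45b (1.22, -0.06 to 2.49) and Gadd45g (0.69, -0.68 to 2.06) reached changes of more than 2-fold. Without rt-PA+Acu replicate 3 these differences were 0.28, 0.24 and -0.53. Cdkn1a and Btg2 (-0.73, -1.59 to 0.12) also had intervals past 2-fold, while those of Sesn1 (-0.07, -0.32 to 0.19), Mdm2 (0.27, -0.15 to 0.69), Plk3 (0.08, -0.44 to 0.59) and Ccng1 stayed within it. Ccng1 was the 1 gene of the 9 whose groups lay apart, against 30.7% of all genes.

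In the 2 remaining pairs the order of levels was the same. In rt-PA vs Sham 6 of the 9 were DEGs, all higher, against 22.6% of all genes (11.0% higher), and in rt-PA+Acu vs Model 4 were, all lower (Cdkn1a, Gadd45a, Gadd45b and Gadd45g), against 14.5% (6.62% lower). Without rt-PA+Acu replicate 3 the last 3 of these moved from -2.09, -2.56 and -3.29 to -2.72, -3.54 and -4.50 on the log2 scale. Without the fold change threshold 8 of the 9 passed in each, all but Btg2, with 7 higher and 1 lower in rt-PA, against 54.7% of all genes (27.4% higher and 27.3% lower), and with 7 lower and 1 higher in rt-PA+Acu, against 34.3% (16.9% lower and 17.4% higher). In rt-PA+Acu vs Model the adjusted p of Plk3 was 0.0654 without rt-PA+Acu replicate 1 and 0.0730 without replicate 2, and that of Ccng1 was 0.0644 to 0.110 without Model replicate 1, Model replicate 2 or either of those rt-PA+Acu libraries. Plk3 stood at -0.98 on the log2 scale in this pair, and it became a DEG in 4 of 13 refits. Btg2 in rt-PA vs Sham was at 0.37 (adjusted p = 0.454), and without Sham replicate 1 at 0.99 (adjusted p = 0.0152). These pairs share libraries with the comparisons above and are not independent of them. For Cdkn1a, Mdm2, the GADD45 genes and Plk3 the levels thus fell into Model and rt-PA above Sham and rt-PA+Acu, and for Sesn1 the reverse. Within each of these 2 sets the neighbouring groups overlapped, and their differences did not pass the test.

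Each library was placed on the log2 scale between the Sham mean (0) and the Model mean (1) for the 6 genes that were DEGs of Model vs Sham. Since these genes and the ends of the scale come from Sham and Model, only the other libraries are described. The median position over the 6 genes was 0.99, 1.06 and 0.98 in rt-PA replicates 1 to 3. It was -0.04 and -0.05 in rt-PA+Acu replicates 1 and 2 and 0.50 in replicate 3, where the 6 genes ran from 0.23 for Cdkn1a to 0.59 for Mdm2. In replicates 1 and 2 the highest gene was Gadd45a in replicate 2, at 0.20. Replicate 3 was the highest rt-PA+Acu library at each of the 6 genes and lay below all rt-PA libraries.

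**Figure D3:**
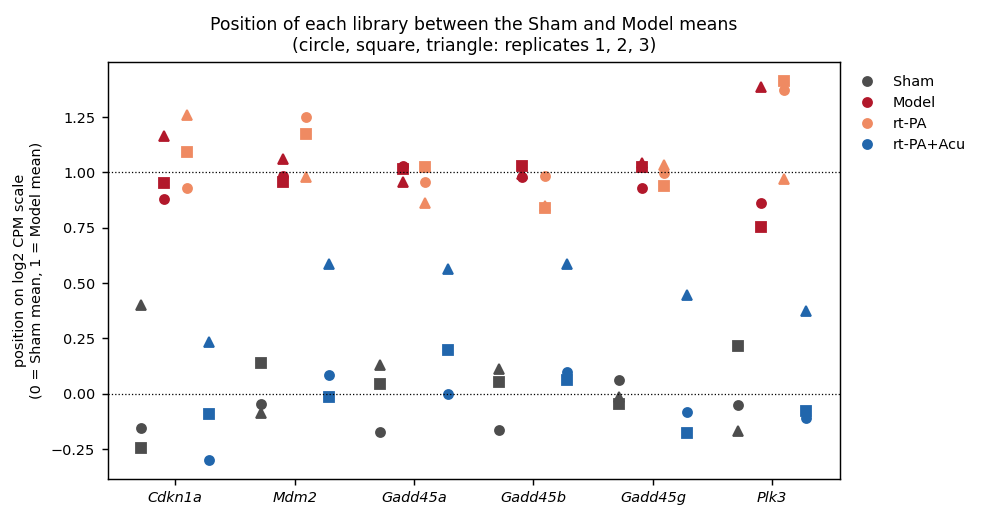
Position of each of the 12 libraries (points, shaped by replicate number and coloured by group) between the Sham mean (0) and the Model mean (1) on the log2 CPM scale, for the 6 genes that were DEGs of Model vs Sham. Over the 6 genes the rt-PA medians were 0.98 to 1.06, and those of rt-PA+Acu were -0.04, -0.05 and 0.50.

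The protein p53 is controlled mainly through its stability, by regulators that modify or bind it. Of 9 such regulators tested outside the 9 growth arrest genes, 0 were DEGs in Model vs Sham or in rt-PA+Acu against rt-PA. Without the fold change threshold 2 passed in Model vs Sham, 1 higher and 1 lower, and 2 passed in rt-PA+Acu against rt-PA, both higher. For this list and those below, 21.5% of all genes tested were DEGs in Model vs Sham and 54.0% passed. In rt-PA+Acu against rt-PA these shares were 15.3% and 34.8%.

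Other p53 targets moved in both directions. Of 20 tested targets of arrest and repair outside the 9 genes, 5 were higher and 2 lower as DEGs in Model vs Sham, with a median log2 fold change of 0.15, and of 21 tested in rt-PA+Acu against rt-PA 3 were higher and 4 lower, with a median of -0.15. Sfn, which encodes the cell cycle inhibitor 14-3-3 sigma, rose from 0.633 ± 0.215 CPM (SD, n = 3) in Sham to 8.81 ± 1.94 in Model (log2 fold change 3.80, SE 0.34) and was 0.846 ± 0.499 in rt-PA+Acu against 7.97 ± 1.01 in rt-PA (-3.20, SE 0.42). Sesn2, the paralog of Sesn1 that is also induced by ATF4, rose by 1.88 (SE 0.23) in Model and fell by 1.30 on the log2 scale in rt-PA+Acu against rt-PA, so the 2 sestrins moved in opposite directions in both comparisons. Sertad1, a regulator of CDK4, rose by 1.88 in Model and fell by 1.41 in rt-PA+Acu against rt-PA. Ddit4, an inhibitor of mTORC1 induced by hypoxia and glucocorticoids, was lower in Model than in Sham (log2 fold change -2.12, SE 0.43) and higher in the rt-PA+Acu group than in rt-PA (1.40, SE 0.26).

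Of 14 p53 targets of cell death, 5 were higher and 1 lower as DEGs in Model vs Sham, and 1 higher and 5 lower in rt-PA+Acu against rt-PA. Bid, which carries the death receptor signal to mitochondria, went from 6.40 ± 1.56 CPM in Sham to 36.5 ± 3.72 in Model and from 41.3 ± 4.86 in rt-PA to 13.2 ± 8.55 in rt-PA+Acu, changes of 2.52 (SE 0.20) and -1.64 (SE 0.41) on the log2 scale. In the same 2 comparisons Aen, a nuclease of apoptosis, rose by 1.84 and fell by 1.45, and Rps27l, a ribosomal protein paralog, rose by 1.67 and fell by 1.04. The death receptor gene Tnfrsf10b was low throughout, at 1.14 ± 0.441 CPM in Sham and 2.83 ± 0.873 in Model (log2 fold change 1.32, adjusted p = 0.0278) and at 0.508 ± 0.248 in rt-PA+Acu against 4.61 ± 1.80 in rt-PA (-3.14, adjusted p = 0.00447).

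The list of other CDK inhibitors, p21's relatives in function, held no DEG. Of 5 tested, 0 were DEGs in either comparison and 1 passed in Model vs Sham, lower, and 0 in rt-PA+Acu against rt-PA. Among 10 cyclins and CDKs of G1 and S phase, 1 was a DEG in Model vs Sham, Ccna2, higher by 1.03 (adjusted p = 0.0145), and 3 were DEGs in rt-PA+Acu against rt-PA, all lower, namely Ccna2 (-1.23), Cdk2 (-1.10) and Ccnd1 (-1.02). The summed level of 12 markers of proliferating cells was 19.8 to 25.2 CPM in Sham, 24.7 to 59.7 in Model, 46.8 to 78.1 in rt-PA and 27.4, 25.9 and 48.4 in rt-PA+Acu, and its part in these results was not tested.

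Among the partners of GADD45 proteins in MAP kinase signalling, 1 gene was higher and 1 lower as a DEG in Model vs Sham, of 10 tested, and likewise in rt-PA+Acu against rt-PA, of 11. Both encode kinases that activate p38. Map2k3 rose from 9.85 ± 0.488 CPM in Sham to 28.9 ± 3.45 in Model (log2 fold change 1.56, SE 0.15) and was at 7.74, 8.37 and 13.9 CPM in rt-PA+Acu against 28.4 ± 3.84 in rt-PA (log2 fold change -1.50, SE 0.25). Map2k6 fell from 26.9 ± 4.25 to 3.67 ± 0.422 (-2.86, SE 0.19) and was 27.9 ± 9.23 in rt-PA+Acu against 3.62 ± 1.42 in rt-PA (2.94, SE 0.37). The 2 genes moved in opposite directions in each comparison.

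Of the other 4 polo-like kinases, 2 were higher and 1 lower as DEGs in Model vs Sham and 1 was a DEG in rt-PA+Acu against rt-PA, higher. Plk2, a synaptic kinase induced by activity, and Plk4, the kinase of centriole duplication, rose by 1.14 and 1.38 in Model. Their differences in rt-PA+Acu against rt-PA were -0.19 (adjusted p = 0.426) and -0.02 (SE 0.59, adjusted p = 0.982). Plk4 had 9.98, 8.39 and 6.33 CPM in rt-PA and 4.21, 3.22 and 16.8 in rt-PA+Acu. Replicates 1 and 2 of rt-PA+Acu thus lay below every rt-PA library and replicate 3 above all of them. Whether Plk2 or Plk4 differed from Plk3 was not tested. Plk5, which lacks much of its kinase domain and is expressed in brain, went down in Model (-3.90, SE 0.48) and was higher in the rt-PA+Acu group than in rt-PA (3.07, SE 0.62), at 12.3 CPM or less in every library. Of 4 tested relatives of Btg2 in the BTG and TOB family, 0 were DEGs and 3 passed in Model vs Sham, 1 higher and 2 lower. Of 11 subunits of CCR4-NOT, the complex that shortens mRNA tails and to which BTG proteins bind, 0 were DEGs and 1 passed.

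**Figure D4:**
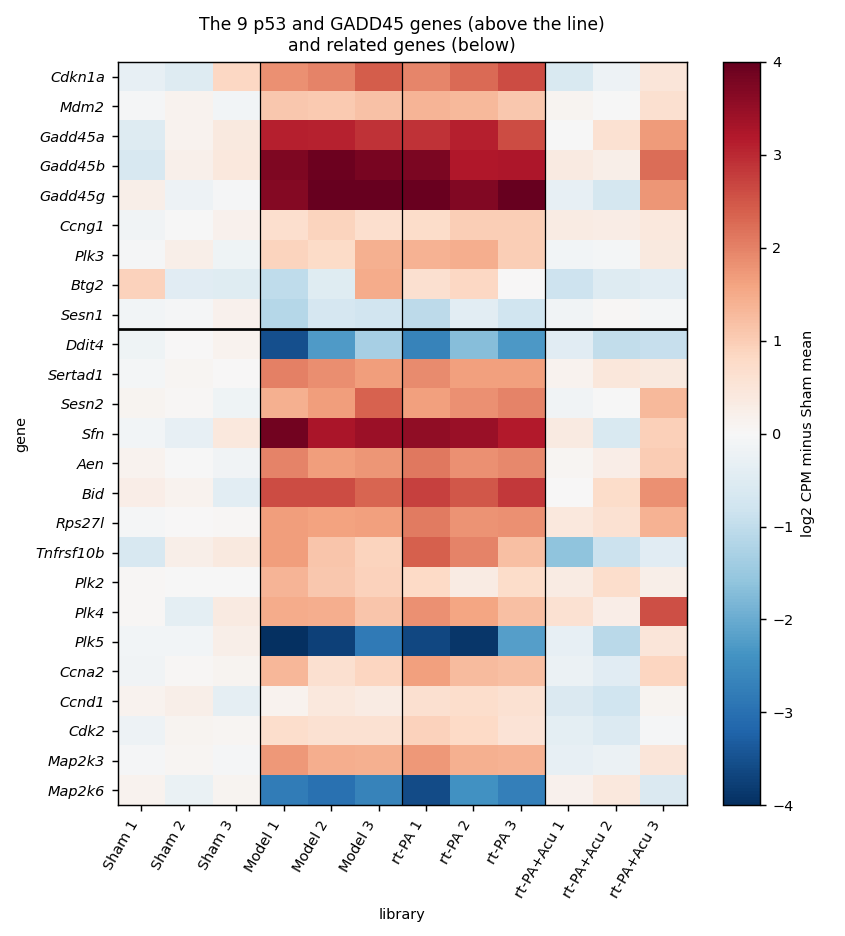
Log2 CPM minus the Sham mean (colour, which ends at 4 in either direction) of the 9 genes and, below the line, of related genes in each of the 12 libraries. Sfn and Bid were above the Sham mean in all Model and rt-PA libraries, with log2 fold changes of 3.80 and 2.52 in Model vs Sham, and Ddit4, Map2k6 and Plk5 were below it, at -2.12, -2.86 and -3.90.

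Btg2, Gadd45b and Gadd45g are often counted among the immediate early genes, which respond within minutes to hours to activity or stress. Of 23 such genes outside the 9, 9 were higher and 3 lower as DEGs in Model vs Sham, and 14 were lower and 0 higher in rt-PA+Acu against rt-PA. In these comparisons the transcription factor gene Myc rose by 3.82 and fell by 2.76 on the log2 scale. Atf3, a stress transcription factor, rose by 3.33 (SE 0.90) and fell by 4.25 (SE 0.47). In Sham Atf3 had 9.21, 0.459 and 0.437 CPM, so the size of its rise depends on Sham replicate 1. Dusp5, a phosphatase that shuts off ERK, rose by 2.76 and fell by 2.20, and Ier3 rose by 2.24 and fell by 2.80. The summed level of the list was 1061 to 1415 CPM in Sham, 1456 to 2099 in Model, 1348 to 1576 in rt-PA and 547 to 676 in rt-PA+Acu. In rt-PA+Acu vs Sham, 8 of the 23 were DEGs, all lower, against 2.06% of all genes, and 0 of the 9 growth arrest genes were DEGs. In rt-PA vs Model, 0 genes of any of these 10 lists were DEGs.

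The genes whose log2 CPM followed each of the 9 most closely over the 12 libraries were sought among 12744 genes by the root mean square difference after centring. For Mdm2 these were Helb (0.067) and Bak1 (0.10), for Ccng1 Polr2a (0.080) and Stt3b (0.10), for Sesn1 Nipa1 (0.118) and Dcun1d4 (0.122) and for Plk3 Lamc1 (0.157) and Mdm2 (0.158). The wider moving genes had looser neighbours. They were Igfbp3 (0.28) and Tnip2 (0.31) for Gadd45a, Map3k6 (0.33) and Tgfb3 (0.37) for Cdkn1a, Myo3b (0.34) and Slc1a5 (0.38) for Gadd45b, and Aldh1l2 (0.34) and Adamts1 (0.38) for Gadd45g. With library size alone in place of TMM 18 of these 18 pairs were found again, and with a prior count of 0.5 in place of 2 it was 15. Those not found again were Myo3b for Gadd45b, Stt3b for Ccng1 and Depp1 for Btg2, whose neighbours are given below. Myo3b had only 0.08, 0.23 and 0.17 CPM in Sham replicates 1 to 3, which is no more than 3 counts.

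For Btg2 the nearest genes were Klf2 (0.360) and Depp1 (0.361), a KLF transcription factor of vessels and T cells and a target of FOXO factors and progesterone. Klf2 had 29.0, 13.4 and 13.5 CPM in Sham and 6.94, 7.19 and 29.8 in Model, and Depp1 had 4.28, 1.15 and 2.10 in Sham and 1.37, 1.52 and 8.84 in Model. Both were highest in the same libraries as Btg2, Sham replicate 1 and Model replicate 3 among these 2 groups. In rt-PA they had 24.7, 17.2 and 16.1 and 4.78, 4.45 and 3.31 CPM, and in rt-PA+Acu 11.4, 14.2 and 12.3 and 0.842, 2.27 and 1.20. The likeness is a description over 12 libraries that share their groups and depth.

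**Figure D5:**
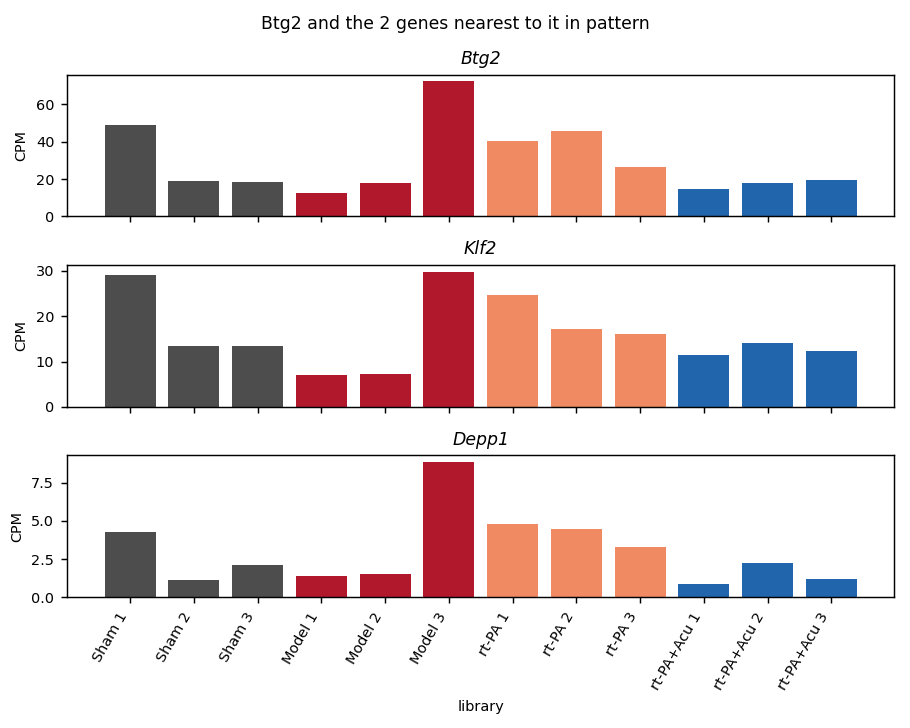
CPM (vertical axis) of Btg2 and of Klf2 and Depp1, the 2 genes with the smallest root mean square difference from it, in each of the 12 libraries in order of group. All 3 genes were high in Sham replicate 1 and Model replicate 3, at 49.0 and 72.2 CPM for Btg2, 29.0 and 29.8 for Klf2 and 4.28 and 8.84 for Depp1.

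Markers of cell types moved along with these results, and their part in them was not tested. The summed level of 12 markers of monocytes and macrophages was 71.0 to 92.5 CPM in Sham, 442.5 to 680.9 in Model, 980.6 to 1774 in rt-PA and 120.1, 127.1 and 392.5 in rt-PA+Acu. Of these, 6 of 11 tested were DEGs higher in Model, and 10 of 11 were DEGs lower in the rt-PA+Acu group than in rt-PA. In rt-PA this sum lay above every Model library, though 0 of the 11 markers tested in rt-PA vs Model were DEGs or passed the test. Neutrophil markers summed to 3.74 to 17.3 CPM outside rt-PA and 15.1 to 82.3 in rt-PA, with Mpo, Elane and Ltf at 0 counts in all libraries. Markers of endothelial cells were at 308 to 345 CPM in Sham, 347 to 604 in Model, 487 to 673 in rt-PA and 199 to 226 in rt-PA+Acu, below every Sham library, and those of homeostatic microglia at 567 to 707, 390 to 455, 394 to 449 and 438 to 510. Of 8 microglia markers tested, 5 were DEGs in Model vs Sham, all lower, with a median log2 fold change of -1.63. In rt-PA+Acu against rt-PA 4 were DEGs, all higher.

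Neuron markers summed to 8744 to 9705 CPM in Sham, 8161 to 8321 in Model, 6654 to 8000 in rt-PA and 10625, 10826 and 7558 in rt-PA+Acu. Those of cortical excitatory neurons were at 2196 to 2442, 1073 to 1291, 903 to 1160 and 2307, 2786 and 1588, with replicate 3 of rt-PA+Acu again between the groups. Neuron and cortical excitatory neuron markers were thus present in every library, as the label of cortex has it. The 10 markers of choroid plexus epithelium summed to 165 to 187 CPM in Sham, 46.4 to 95.5 in Model, 87.6 to 133 in rt-PA and 69.5 to 223 in rt-PA+Acu, with Otx2 at 0 counts in all libraries and Ttr at no more than 3. Only 3 of the 10 were tested in Model vs Sham, and 2 of them were DEGs higher and 1 lower. The lower sum in Model thus does not describe the list as a whole. Markers of striatal neurons were also present, at 463 to 1260 CPM in Sham and 198 to 376 in the other groups. Of 8 tested, 7 were DEGs in Model vs Sham and 6 each in rt-PA vs Sham and rt-PA+Acu vs Sham, all lower. The shares of all genes that were DEGs in these comparisons were 21.5%, 22.6% and 2.06%. Oligodendrocyte markers varied widely within groups, from 12905 to 19270 CPM in Sham, 1820 to 9244 in Model, 2862 to 12429 in rt-PA and 3544 to 22751 in rt-PA+Acu. Of the 10, 8 were DEGs in Model vs Sham, all lower, and 0 were DEGs in rt-PA+Acu against rt-PA. Astrocyte markers were at 6763 to 7828, 4875 to 6769, 5290 to 6319 and 7058 to 8428, and those of meningeal fibroblasts at 313 to 786, 80.6 to 270, 213 to 778 and 303 to 705. The astrocyte sum hides larger changes of single genes. Of the 10 astrocyte markers, 8 were lower and 1 higher as DEGs in Model vs Sham (median log2 fold change -1.42), against 21.5% of all genes. In rt-PA+Acu against rt-PA 6 were DEGs, all higher (median 1.15), against 15.3%. Red blood cell markers stayed at 8.65 CPM or less.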

How the data were processed

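The deposited values are whole-number counts per gene symbol and library for 12 rat cortex libraries. The authors prepared stranded poly(A) libraries with molecular identifiers from RNA of integrity above 7.0, sequenced pairs of 150 bases, and name STAR 2.7.10a for alignment to mRatBN7.2 with an Ensembl annotation. Salmon 1.9.0 is given for counting in the methods, and featureCounts 2.0.1 stands beside it in the processing notes. The annotation release, the strand setting and any use of the identifiers are not given in the sources used here, so intervals cover counting error and spread between rats only.

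For every pair of groups, its 6 libraries alone entered a fit with edgeR 4.0.16 (R 4.3.3, TMM, filterByExpr, quasi-likelihood test, Benjamini-Hochberg adjustment over all genes tested), after a test on simulated data. Log2 CPM had a prior count of 2. DESeq2 1.42.0 and other settings were alternatives. Figures were drawn with matplotlib 3.10.9 in Python 3.11.15. The 9 genes are all named. A further gene that the naming rule covers is not reported here. Of each related list at most 4 genes are named, namely the DEGs of Model vs Sham or rt-PA+Acu against rt-PA at a mean of at least 1 CPM with the largest change, and for each of the 9 the 2 genes nearest in pattern. Single markers are named only at or near 0. These genes and lists were chosen with earlier results of these data known. Replicates differed by more than sampling noise (chi-square per degree of freedom 8.73 to 51.1), so none was counted as a duplicate.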

Additional observations from a re-analysis of the deposited data

How the results depend on the processing

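The 9 genes counted as DEGs numbered 0 in rt-PA vs Model, 5 to 6 in Model vs Sham, 5 to 7 in rt-PA+Acu against rt-PA, 0 in rt-PA+Acu vs Sham, 6 to 7 in rt-PA vs Sham and 4 to 6 in rt-PA+Acu vs Model over 13 refits of each pair (DESeq2, RLE factors, library size alone, no filter on low counts, a minimum of 10 counts per library, all 12 libraries in 1 fit, a replicate block, and each library left out). Without a fold change threshold rt-PA+Acu vs Model had 8 in place of 4. Of the refitted values of single genes, 670 kept their direction and side of the threshold, 6 fell below it, 10 rose past it and 16 changed sign, none of them from or to a DEG. With library size alone Gadd45g in rt-PA vs Model was at 0.0061. Leaving out 1 library moved log2 fold changes across 0 for Btg2 in Model vs Sham (-0.89 to 0.89). For rt-PA vs Model it did so for Btg2 (-0.27 to 1.28), Gadd45g (-0.17 to 0.049) and Sesn1 (-0.059 to 0.26), in rt-PA+Acu vs Sham for Cdkn1a (-0.53 to 0.39), Plk3 (-0.12 to 0.19), Sesn1 (-0.13 to 0.017) and Gadd45g (-0.53 to 1.08), and in rt-PA+Acu vs Model for Btg2 (-1.39 to 0.16). The replicate numbers are shared between groups, but same-numbered libraries had correlations of their deviations from -0.25 to 0.15, and 2 of 12 libraries correlated best with their own number, so they were not taken as pairs. The replicate block gave 0, 6, 7, 0, 6 and 4 DEGs among the 9 genes in the 6 pairs in the order above, with Mdm2 at -1.01 in rt-PA+Acu against rt-PA. Over all genes the replicate block gave 194 DEGs in place of 263 in rt-PA+Acu vs Sham, where DESeq2 gave 426 and leaving out 1 library 82 (Sham replicate 2) to 359 (rt-PA+Acu replicate 1). In rt-PA vs Model DESeq2 gave 72 in place of 0, 1 fit over all libraries 2, and leaving out 1 library 0 to 3. With 3 rats a group, intervals of genes that vary within groups, such as Btg2 in Model vs Sham, reach past 2-fold either way.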
